A study of Sus scrofa with 4 samples.

Results

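The genes of glucose and central carbon metabolism were examined in the liver of piglets fed with or without added L-carnitine. They comprise the enzymes of glycolysis and gluconeogenesis, the transporters for glucose, the pyruvate dehydrogenase complex, the tricarboxylic acid (TCA) cycle and the enzymes that build and degrade glycogen. A list of 47 such genes was matched by gene symbol to the probe sets of the Affymetrix porcine GeneChip, an array on which each transcript is read by a set of short probes. A probe set was annotated for 39 of the 47 genes, and where a gene had several, the one with the highest mean log2 signal over the 4 arrays was taken. The genes HK2, PFKFB1, PFKFB2, ALDOA, PGAM1, PKLR, GYS2 and GBE1 had no annotated probe set and are not analysed here. The 39 genes stand among 6765 genes with 1 annotated symbol and 23999 probe sets that were tested.

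The animals were male crossbred pigs of the cross (German Landrace x Large White) x Pietrain, and all were 7 weeks old when the liver was taken, 2.5 h after a meal. Both groups received the same basal diet, itself low in carnitine, for 21 days, and in the carnitine group it held 500 mg of added L-carnitine per kg. Each diet had 8 pigs, whose liver RNA was combined into 2 pools of 4 pigs, with 1 array per pool. The 2 pools of a diet are therefore the only replication, and differences between single animals within a pool cannot be seen.

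Glycolysis splits glucose into pyruvate and yields ATP. The liver also runs the path in reverse as gluconeogenesis, which uses its own enzymes at the irreversible steps and releases glucose into the blood between meals. After a meal the liver stores glucose as glycogen. Pyruvate enters the mitochondria and is converted to acetyl-CoA by the pyruvate dehydrogenase complex, or to oxaloacetate by pyruvate carboxylase, and the TCA cycle oxidizes acetyl-CoA to carbon dioxide. Carnitine takes up acetyl groups from acetyl-CoA, which links it to the same pool of metabolites.

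Signals are given as deposited, in linear MAS5 intensity units, and the median signal of an array lay between 109 and 114. Hepatocyte markers were bright on every array, with 10 of 10 measured markers above the median signal and summed signals of 300723 to 329478 in the carnitine pools and 325884 to 352329 in the control pools. By the mean log2 signals 8 of the 10 were lower with carnitine, 4 of them with no overlap between the diets. The other 2 were higher with no overlap. CPS1 had 14910 and 16672 with carnitine and 13392 and 12424 in controls, and ARG1 had 3913 and 7264 against 1823 and 3816. Control pool 2 stood apart in the markers of stellate cells and fibroblasts (7 of 8 measured), whose summed signal was 12048 there against 3311 in control pool 1 and 4296 and 4578 in the carnitine pools, with ACTA2 alone giving 5533 of the 12048. The array control for GAPDH had a ratio of 3′ to 5′ signal, a sign of RNA integrity and labelling, that ran from 11.6 to 12.5 in controls and from 16.1 to 18.7 with carnitine, so that this ratio moved with the diet. The actin control also separated the diets, with 157 and 136 against 91.2 and 86.7. A second GAPDH control series overlapped, at 9.65 and 11.1 with carnitine and 10.2 and 9.04 in controls, and so did EF1A, with 23.4 and 29.6 against 57.9 and 18.2. In bulk tissue, fewer cells of a type and less RNA per cell cannot be told apart.

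The 39 genes differed little between the diets. Of them, 18 had a log2 ratio (the log2 fold change, carnitine over control) above 0 and 21 below 0, with a median of -0.014, beside a median of -0.018 over all probe sets and -0.0089 over 1 probe set per gene. None passed an adjusted p of 0.05 in limma, the linear model fitted over all probe sets, whose lowest adjusted p among the 39 genes was 0.461; over all probe sets 0.00417% passed. At an unadjusted p under 0.05, OGDH was higher, and PYGL and IDH3G were lower in the carnitine pools. That is 1 higher and 2 lower of 39, where the shares were 4.72% higher and 3.93% lower over all probe sets, and 6.56% and 3.99% over 1 probe set per gene. A difference of 2-fold or more was seen in 0 genes upward and in 1 gene downward, the dim ENO3, against 8.03% and 7.92% of all probe sets and 4.76% and 4.17% over 1 probe set per gene.

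Both carnitine pools lay above both control pools for 5 genes (DLAT, ACO1, OGDH, IDH3B and FBP1). Both lay below for 10 genes (PDHB, PGK1, IDH2, FH, UGP2, MDH1, IDH3G, PYGL, PFKP and ENO3). Together these were 38.5% of the 39 genes. Over all probe sets the pools did not overlap in 19.2% upward and 20.4% downward, and over 1 probe set per gene in 21.5% and 21.0%, so that the share in these pathways was close to the background. The median size of the difference, regardless of sign, was 0.24 on the log2 scale for the 39 genes, 0.29 over 1 probe set per gene and 0.37 over all probe sets. These groups differ in brightness. Above the median signal lay 36 of the 39 genes, 5039 of the 6765 genes with 1 symbol and 11999 of the 23999 probe sets. Dim signals vary most, and the part of brightness in these sizes and in the 2-fold shares was not tested. For 27 of the 39 genes the 95% interval of the log2 ratio lay wholly within a 2-fold difference in either direction. For the other 12 genes a difference of 2-fold was within the interval, and a p above the threshold does not show that the diets were alike.

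**Figure D1:**
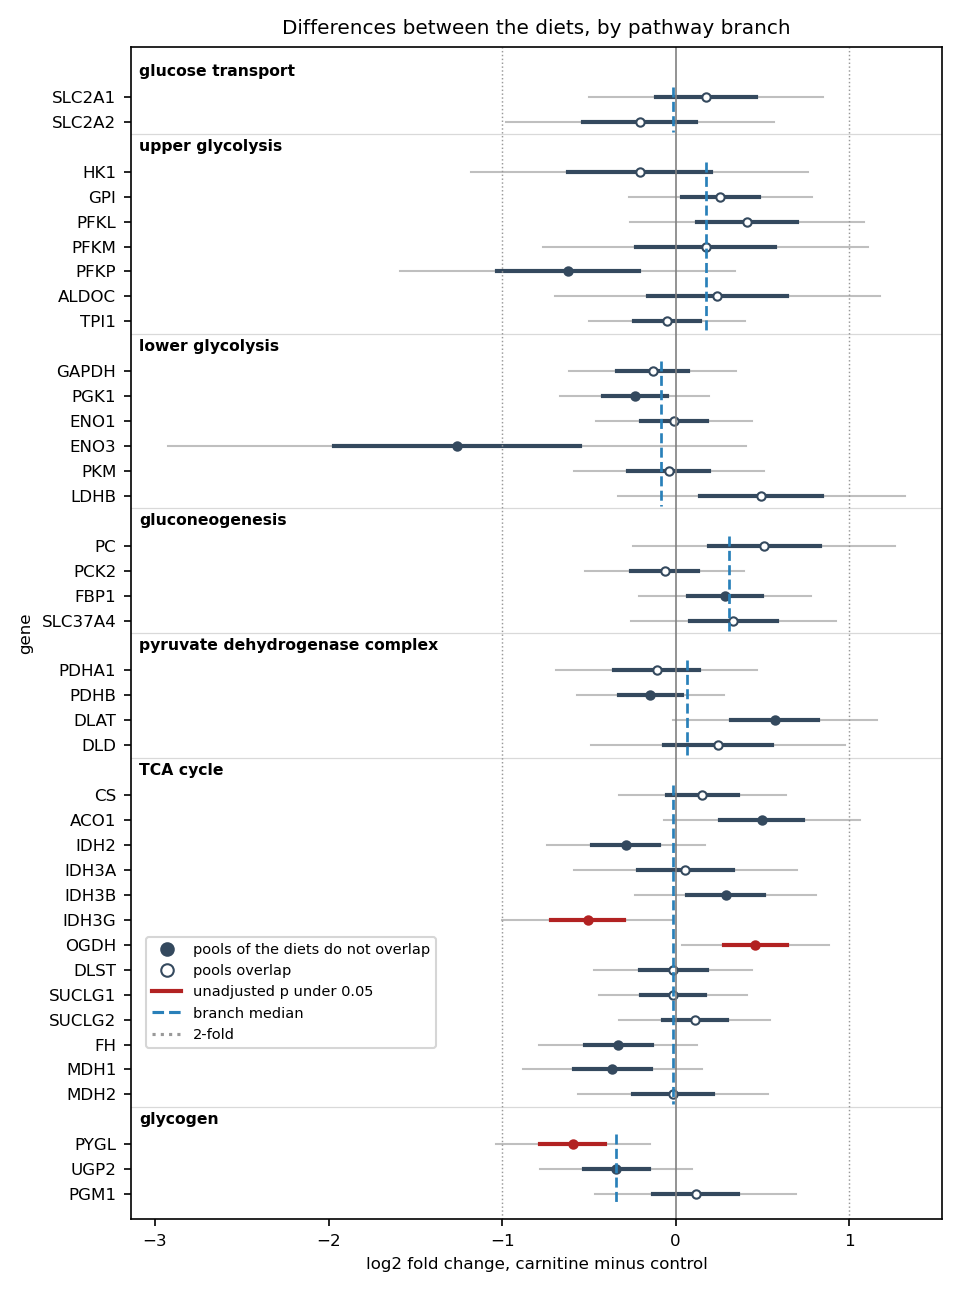
Log2 fold change (carnitine minus control) of the 39 genes by pathway branch, with thick bars for 1 SE, thin grey bars for the 95% interval of limma, filled points where the pools of the diets did not overlap, dashed lines at the branch medians and dotted lines at 2-fold. Red marks OGDH, IDH3G and PYGL, which had an unadjusted p under 0.05, and ENO3 is the only point beyond 2-fold.

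Both glucose transporters overlapped between the diets. SLC2A2 encodes GLUT2, the main glucose carrier of hepatocytes, and had signals of 456 and 482 with carnitine and 747 and 392 in controls. The carnitine pools lay between the 2 control pools, and the log2 ratio was -0.21 (standard error, SE, 0.33), with 0.26 without control pool 1 but -0.67 when control pool 2 was left out. SLC2A1, the widely expressed carrier GLUT1, gave 348 and 318 against 355 and 244. Its log2 ratio was 0.17 (SE 0.29), and the control pools again enclosed the carnitine pools.

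The first steps of glycolysis, from glucose phosphorylation to the triose phosphates, had a median log2 ratio of 0.17 over 7 genes, of which 4 were above and 3 below 0, and none reached an unadjusted p under 0.05. GPI, which converts glucose-6-phosphate to fructose-6-phosphate, had signals of 3036 and 3654 with carnitine and 2381 and 3260 in controls. PFKL, the liver form of phosphofructokinase at the committed step, had 422 and 535 against 293 and 435 (log2 ratio 0.41, SE 0.29). In both genes control pool 1 was the lowest of the 4 pools, carnitine pool 2 was the highest, and the remaining pools overlapped. The log2 ratio of GPI was 0.031 and that of PFKL 0.13 without control pool 1, against 0.48 and 0.70 without control pool 2. PFKM, the muscle form, gave 0.17 (SE 0.40). TPI1, which interconverts the triose phosphates, had 3575 and 3123 against 3729 and 3202 (log2 ratio -0.048, 95% interval -0.50 to 0.40). ALDOC, an aldolase best known from brain, had 148 and 96.0 against 95.6 and 107, so that carnitine pool 1 alone was high.

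PFKP, the platelet form of phosphofructokinase, was the 1 gene of this branch whose pools did not overlap, at 64.1 and 87.8 with carnitine and 104 and 128 in controls. Its log2 ratio was -0.62 (SE 0.41, adjusted p = 0.711 from limma), and its signals lay around the median of the array. Markers of macrophages (7 of 10 measured, 5 of them below 0) had summed signals of 5041 and 4108 against 5899 and 6188, which did not overlap either. HK1, the hexokinase of most tissues other than liver parenchyma, had 363 and 274 against 240 and 552. Control pool 2 was the highest for HK1, and 5 of the 7 stellate cell and fibroblast markers were also highest in that pool, while COL1A2 was lowest there and COL3A1 was highest in carnitine pool 2. The log2 ratio of HK1 was -0.21 with all pools, -0.81 without control pool 1 and 0.40 without control pool 2. The part of these cell types in the values of PFKP and HK1 was not tested.

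The later steps of glycolysis, from glyceraldehyde-3-phosphate to lactate, lay mostly below 0, with 5 of 6 genes there, none at an unadjusted p under 0.05, and a median log2 ratio of -0.085. Of these 5, the dim ENO3 was at -1.26 and the others between -0.24 and -0.010. PGK1, the first ATP-producing step, had signals of 2295 and 2528 with carnitine and 2720 and 2956 in controls. Its pools did not overlap, and the log2 ratio was -0.24 (SE 0.18, adjusted p = 0.761 from limma). ENO1, the common enolase, had 5670 and 6058 against 5380 and 6475, and PKM, a pyruvate kinase of most tissues other than mature hepatocytes, had 569 and 626 against 697 and 539. The control pools enclosed the carnitine pools in both genes, with log2 ratios of -0.010 (95% interval -0.46 to 0.44) and -0.039 (95% interval -0.59 to 0.51). ENO3, the muscle enolase, was dim at 11.0 and 13.5 against 23.6 and 36.1. That is 2.39-fold lower by the mean log2 signals, but the SE was 0.71 (adjusted p = 0.680 from limma), and with 64 added to every signal the log2 ratio was -0.30. Skeletal muscle markers were dim as well, with 0 of 6 above the median signal and summed signals of 104 and 77.6 against 107 and 79.7. LDHB, a lactate dehydrogenase subunit, lay at 5175 in carnitine pool 1 and at 5722 and 5229 in controls, but at 11473 in carnitine pool 2. Its log2 ratio was 0.49 with all pools, 1.07 when carnitine pool 1 was left out and -0.080 when carnitine pool 2 was. LDHA, of the same step, stands in a list of neighbouring genes and not among the 6. It had 2524 and 3029 against 1227 and 2303, with no overlap (log2 ratio 0.72, SE 0.31). In that list 4 genes were above and 4 below 0, so the direction of this branch holds for the 6 listed genes only.

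GAPDH, often used as a reference transcript, had signals of 33434 and 31416 with carnitine and 37894 and 33292 in controls. Carnitine pool 1 lay just above control pool 2, so the diets overlapped, and the log2 ratio was -0.13 (SE 0.20, 95% interval -0.61 to 0.35). The array holds 14 probe sets annotated to GAPDH, 9 of which are array controls aimed at the 3′ part, the middle or the 5′ part of the transcript. All 14 had a log2 ratio below 0, and in 7 of them both carnitine pools were below both control pools. The size differed with the part of the transcript: the median was -0.064 over the 3 controls of the 3′ part, -0.38 over the 3 of the middle and -0.59 over the 3 of the 5′ part. In one of the control series the 5′ signal was 1735 and 1877 against 2829 and 2605, while the 3′ signal was 32412 and 30129 against 35363 and 30165. Another control series had log2 ratios of -0.049 at the 3′ part, -0.28 in the middle and -0.15 at the 5′ part, so that its 5′ part was not the lowest. The probe sets share transcript and arrays and are not independent of each other, and the part of the 3′ to 5′ ratio in the values of other genes was not tested.

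**Figure D2:**
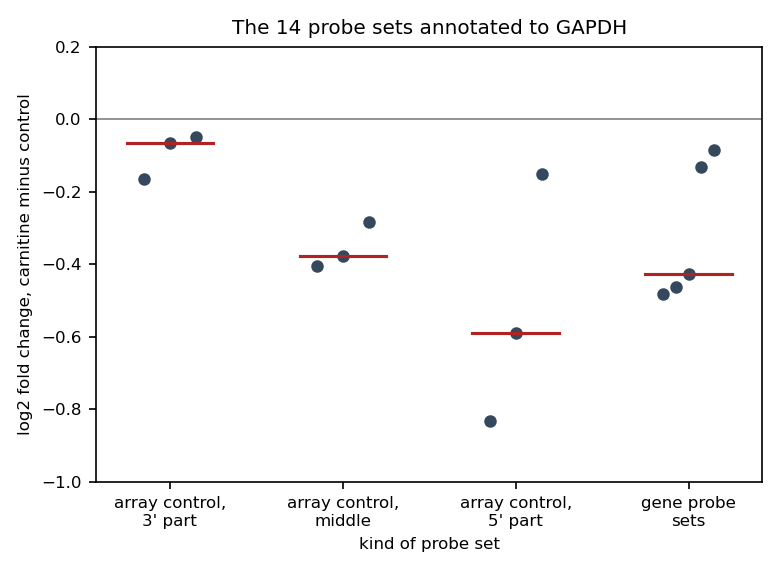
Log2 fold change (carnitine minus control) of the 14 GAPDH probe sets, 1 point each, grouped as array controls of the 3′ part, the middle and the 5′ part of the transcript and as gene probe sets, with a red line at each group's median. All points lie below 0, and the medians of the array controls go from -0.064 at the 3′ part to -0.59 at the 5′ part. In one control series the 5′ part, at -0.15, is less negative than the middle, at -0.28.

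Among the enzymes that belong to gluconeogenesis, 3 of 4 had a log2 ratio above 0, with a median of 0.31, and none reached an unadjusted p under 0.05. FBP1, the liver fructose-1,6-bisphosphatase, had signals of 14775 and 18639 with carnitine and 12689 and 14639 in controls. Carnitine pool 1 exceeded control pool 2 by a narrow margin, and the log2 ratio was 0.28 (SE 0.21, adjusted p = 0.743 from limma). PC, pyruvate carboxylase, had 5895 and 10507 against 6756 and 4520. Carnitine pool 2 was high and the other pools overlapped, and the log2 ratio of 0.51 (SE 0.32) ran from 0.093 (carnitine pool 2 left out) to 0.93 (carnitine pool 1 left out), with 0.22 without control pool 2 and 0.80 without control pool 1. SLC37A4, which carries glucose-6-phosphate into the endoplasmic reticulum for the last step, had 10032 and 9561 against 6177 and 9800. Here control pool 1 was low and the other 3 pools were alike, and the log2 ratio of 0.33 was -0.00094 without control pool 1 but 0.66 when control pool 2 was left out. A second probe set of SLC37A4 gave 0.32, with control pool 1 again the lowest at 2456. PCK2, the mitochondrial phosphoenolpyruvate carboxykinase, had 3700 and 4248 against 3784 and 4540 (log2 ratio -0.064, 95% interval -0.52 to 0.39). The branch median was 0.090 without control pool 1 and 0.10 without carnitine pool 2.

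The subunits of the pyruvate dehydrogenase complex lay on both sides of 0, 2 above and 2 below, and none reached an unadjusted p under 0.05. DLAT, the E2 subunit that transfers the acetyl group to CoA, had signals of 360 and 390 with carnitine and 251 and 254 in controls, a log2 ratio of 0.57 (SE 0.25, adjusted p = 0.587 from limma). The pools of each diet lay close together and the diets were well apart. PDHB, the beta subunit of the E1 decarboxylase, differed in the other direction by a small amount, at 1589 and 1620 against 1768 and 1780 (log2 ratio -0.14, SE 0.18). PDHA1, the alpha subunit of the same enzyme, had 433 and 416 against 401 and 523 and overlapped. DLD, the E3 subunit, which is shared with the 2-oxoglutarate dehydrogenase complex, had 1197 and 2116 against 1136 and 1593, with the second pool of each diet the higher one. Its log2 ratio of 0.24 was 0.65 when carnitine pool 1 was left out and -0.17 when carnitine pool 2 was, with -0.0013 and 0.49 for control pools 1 and 2.

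The TCA cycle was the largest branch, and its 13 genes spread about 0. Of these, 6 were above and 7 below 0, with a median log2 ratio of -0.014, and the range was -0.51 to 0.50. The branch as listed includes 2 cytosolic enzymes, MDH1 and ACO1, and ACO1 gave the upper end of this range. OGDH, the E1 subunit of the 2-oxoglutarate dehydrogenase complex, had signals of 2324 and 2409 with carnitine and 1695 and 1746 in controls. The diets were clearly apart and the pools of each diet nearly equal, with a 1.38-fold higher signal (log2 ratio 0.46, SE 0.18, adjusted p = 0.538 from limma). DLST, the E2 subunit of the same complex, had 1634 and 1596 against 1494 and 1780 (log2 ratio -0.014, 95% interval -0.47 to 0.44). ACO1, the cytosolic aconitase that also serves as iron regulatory protein, had 2845 and 3466 against 1842 and 2687, and its pools did not overlap (log2 ratio 0.50, SE 0.24). A second probe set of ACO1 gave 0.12, with overlapping pools.

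The 3 subunits of the NAD-dependent isocitrate dehydrogenase differed in sign. IDH3G, a regulatory subunit, had signals of 880 and 1096 with carnitine and 1477 and 1317 in controls. All carnitine values were below all control values, 1.42-fold by the mean log2 signals (log2 ratio -0.51, SE 0.21, adjusted p = 0.566 from limma). IDH3B, the other regulatory subunit, had 902 and 1129 against 759 and 897, so that carnitine pool 1 was level with control pool 2 (log2 ratio 0.29, SE 0.22). IDH3A, the catalytic subunit, had 234 and 257 against 247 and 226 (log2 ratio 0.056, SE 0.27). IDH2, the mitochondrial enzyme that forms NADPH, had 5377 and 4341 against 5996 and 5793 (log2 ratio -0.29, SE 0.19). For IDH2 both carnitine pools were below both control pools.

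Fumarase and the cytosolic malate dehydrogenase were also lower with carnitine, with no overlap of the pools. FH had signals of 2827 and 2893 with carnitine and 4012 and 3226 in controls (log2 ratio -0.33, SE 0.19, adjusted p = 0.690 from limma), and the log2 ratio was -0.17 without control pool 1 but -0.49 when control pool 2 was left out. MDH1, which serves the malate-aspartate shuttle in the cytosol, had 1504 and 1685 against 2394 and 1753, and its log2 ratio of -0.36 was -0.14 without control pool 1 but -0.59 when control pool 2 was left out. The gap of MDH1 to control pool 2 was small. The mitochondrial enzyme MDH2 overlapped, with 6687 and 6254 against 5365 and 7955 (log2 ratio -0.015, 95% interval -0.56 to 0.53). The subunits of succinyl-CoA ligase were nearly level, with log2 ratios of -0.015 (95% interval -0.44 to 0.41) for SUCLG1 and 0.11 (95% interval -0.32 to 0.54) for SUCLG2. CS, citrate synthase at the entry of the cycle, had 3554 and 3325 against 3528 and 2703. The pools overlapped for CS, and the log2 ratio was 0.15 (SE 0.20).

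In the glycogen branch the enzyme that releases glucose-1-phosphate from glycogen had the smallest p of all 39 genes. PYGL, liver glycogen phosphorylase, had signals of 6747 and 5721 with carnitine and 9480 and 9251 in controls. Both carnitine pools were well below the closely spaced control pools, 1.51-fold by the mean log2 signals (log2 ratio -0.59, SE 0.19, 95% interval -1.03 to -0.15, adjusted p = 0.461 from limma). Without 1 pool at a time the log2 ratio lay between -0.71 and -0.47. UGP2, which makes the UDP-glucose used for glycogen synthesis, had 5832 and 6610 against 8276 and 7484 and was also lower in both carnitine pools (log2 ratio -0.34, SE 0.19). Its second probe set gave 3762 and 4577 against 5645 and 5513 (log2 ratio -0.43, SE 0.19), again with no overlap. PGM1, which links glucose-1-phosphate to glucose-6-phosphate, had 5615 and 5468 against 4076 and 6427. The control pools of PGM1 enclosed the carnitine pools (log2 ratio 0.11, SE 0.25), which was -0.21 without control pool 1 but 0.44 when control pool 2 was left out.

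**Figure D3:**
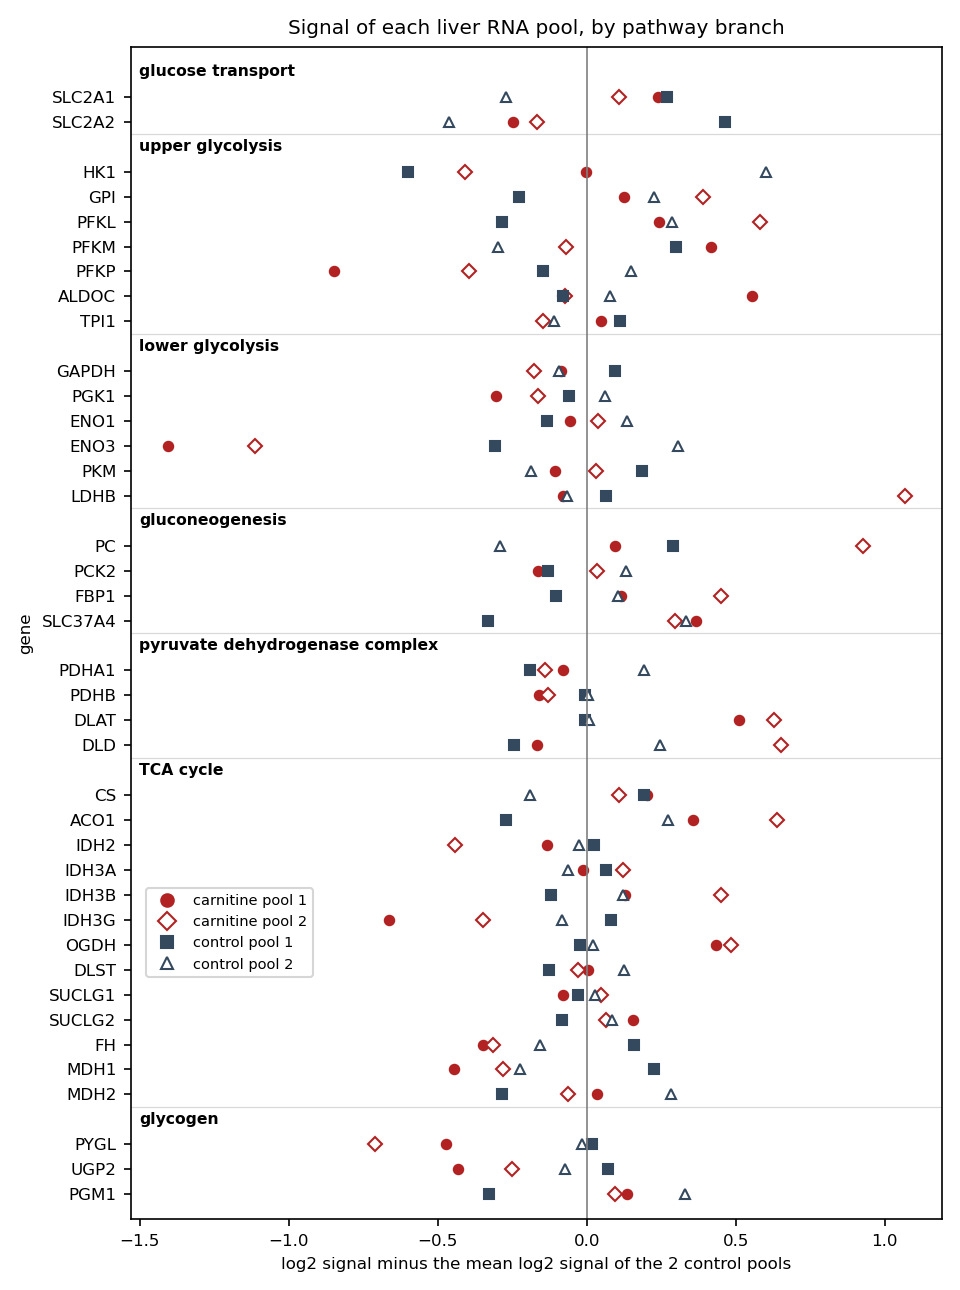
Log2 signal of the 39 genes in each of the 4 liver RNA pools, minus the mean log2 signal of the control pools, with red symbols for the carnitine pools and dark symbols for the control pools, filled for pool 1 and open for pool 2. The red and dark symbols are apart for OGDH, DLAT and PYGL, while for LDHB and PC carnitine pool 2 alone lies high.

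Several probe sets were available for 8 of the 39 genes, with 13 probe sets beside those used above. Of the 13, 10 had the same direction as the first probe set of their gene. These include 7 of the 7 above the median signal of the array, while among the dim ones a probe set each of PKM, PCK2 and ACO1 had the opposite direction. Sizes differed in places. The second probe set of CS gave 1395 and 1177 against 871 and 793, with no overlap and a log2 ratio of 0.62 (SE 0.20, adjusted p = 0.467 from limma), whereas the first gave 0.15. For PKM, a dim probe set gave 50.9 and 37.4 against 14.3 and 15.3, opposite in direction to the first. The unadjusted p from limma was 0.018 for this CS probe set and 0.043 for this PKM probe set. Both are under 0.05, so the count of genes at that threshold depends on the probe set taken. The probe sets of a gene were read on the same arrays and are not replicates.

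Pools of one diet also differed from each other. The median absolute log2 difference over the 39 genes was 0.16 between the carnitine pools and 0.27 between the control pools. Between the diet means, each over 2 pools, it was 0.24. A mean of 2 pools varies less than a single pool, so these sizes are not directly comparable. The widest gap within a diet was 1.15 in the carnitine pools, for LDHB, and 1.20 in the control pools, for HK1. With each pool left out in turn, 20 of the 39 genes kept their direction in all 4 fits. This number includes the 15 genes whose pools did not overlap, for which the direction cannot turn. DLAT, PDHB and OGDH kept nearly the same size in these fits, with ranges of 0.51 to 0.63, -0.16 to -0.13 and 0.43 to 0.49. Of the genes with an unadjusted p under 0.05, PYGL lost it without carnitine pool 2 (-0.47), and OGDH and IDH3G kept it only without control pool 2 (0.48 and -0.59).

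**Figure D4:**
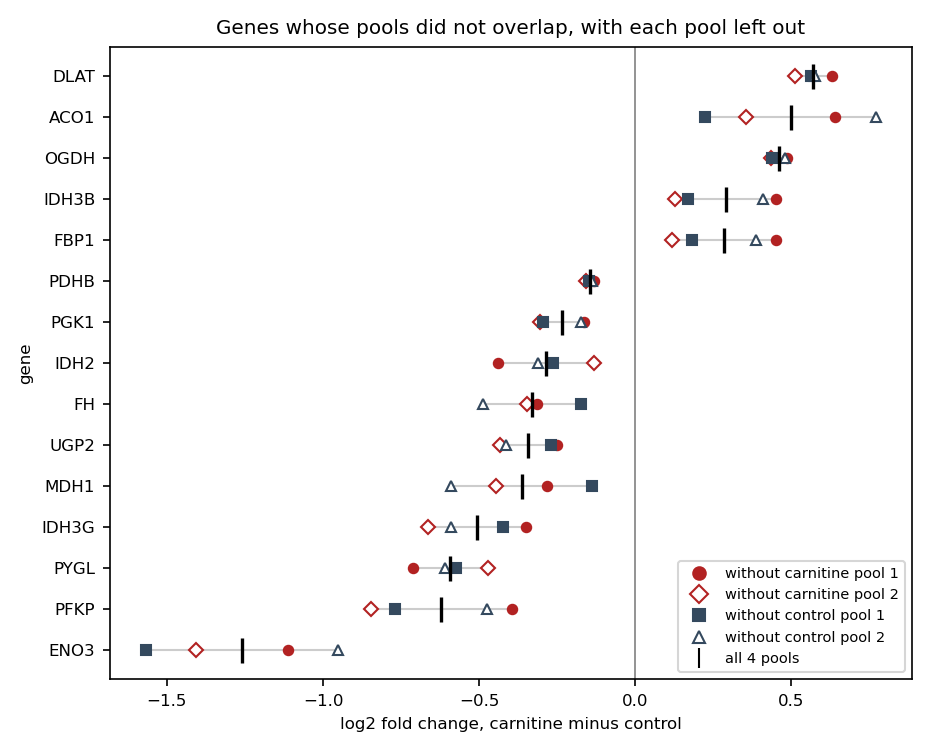
Log2 fold change (carnitine minus control) of the 15 genes whose pools did not overlap, with all 4 pools (black bar) and with each pool left out (symbols). DLAT, OGDH and PDHB stay within narrow ranges, while the value of ACO1 runs from 0.22 to 0.77.

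The neighbouring genes of these pathways were described from 8 lists of 103 genes in all, of which 66 had a probe set. In limma 0 of the 66 passed the adjusted p, and at an unadjusted p under 0.05 there were 8 higher and 4 lower, with a median log2 ratio of 0.037. The shares over 1 probe set per gene were 6.56% and 3.99%, as above. Counts of higher and lower genes in the single lists below use the same threshold on the unadjusted p. Genes that the study had singled out on these samples, SLC2A8, GPD1 and FBP2, are among the 12 and are not independent evidence. The adjusted p of the 12 genes ran from 0.208 to 0.558 in limma.

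Among other hexose carriers (5 of 7 measured, 1 higher and 0 lower), SLC2A8, the transporter GLUT8, had signals of 800 and 1280 with carnitine and 280 and 289 in controls. Among other glycolytic and gluconeogenic genes (8 of 13 measured, 2 higher and 1 lower), FBP2, the muscle fructose-1,6-bisphosphatase, gave 222 and 287 against 543 and 557. Its liver counterpart FBP1 had the opposite direction. GPD1, which connects glycolysis with glycerol-3-phosphate, gave 6367 and 7855 against 3042 and 4943. HK3, a hexokinase of blood cells, gave 334 and 502 against 221 and 226. In these 4 genes the pools did not overlap.

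Of the pentose phosphate pathway 5 of 8 genes were measured, with 0 higher and 0 lower. TKT and TALDO1, transketolase and transaldolase of its non-oxidative part, had log2 ratios of -0.40 and -0.39 (SEs 0.19 and 0.18) and an adjusted p = 0.610 from limma for both. RPIA and RPE, which belong to the same part, gave -0.0072 and 0.025 with overlapping pools. Of the genes for the entry of fructose and galactose 6 of 8 were measured, with 1 higher and 0 lower. GALT, which feeds galactose into UDP-glucose metabolism, gave 1011 and 1446 against 809 and 686. Both carnitine pools were above both control pools for GALT.

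Of the genes that govern the entry of pyruvate 5 of 10 were measured, with 0 higher and 1 lower. PDK4, a kinase that inactivates pyruvate dehydrogenase and is known to be induced by fasting, had signals of 3386 and 1744 with carnitine and 4711 and 6327 in controls (log2 ratio -1.17, SE 0.33, adjusted p = 0.421 from limma). Its pools did not overlap. In the list of other TCA cycle and malate shuttle genes (14 of 18 measured, 2 higher and 0 lower), the higher ones were carriers of the inner mitochondrial membrane. SLC25A11, the 2-oxoglutarate carrier, gave 1569 and 1806 against 838 and 910. SLC25A1, the citrate carrier, gave 7758 and 10229 against 4352 and 5521. For SLC25A11 and SLC25A1 the diets were well apart. SLC25A12, another carrier of the list, went the other way, at 127 and 93.5 against 167 and 134 (log2 ratio -0.45, SE 0.37).

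In the list of other glycogen genes (10 of 19 measured, 1 higher and 1 lower), PPP1R3B, the liver subunit that targets protein phosphatase 1 to glycogen, had signals of 1626 and 2673 with carnitine and 467 and 648 in controls (log2 ratio 1.92, SE 0.30, adjusted p = 0.208 from limma). PHKB, a regulatory subunit of phosphorylase kinase, which activates glycogen phosphorylase, gave 656 and 726 against 1097 and 899. The pools of PPP1R3B and PHKB did not overlap, in opposite directions. Over the 10 genes, 8 log2 ratios were above 0 and 2 below, with a median of 0.20, where the median of the glycogen branch was -0.34. Of the transcription factors known for glucose metabolism, 13 of 20 were measured, with 1 higher and 1 lower. KLF15, a factor of amino acid catabolism and gluconeogenesis, gave 1002 and 729 against 1590 and 1589, and CEBPA, a factor of hepatocyte differentiation, gave 414 and 516 against 215 and 301.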

How the data were processed

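Of each diet, 2 pools of liver RNA were run on Affymetrix porcine GeneChips, 1 pool to an array and in a single colour. What the authors deposited is a table of MAS5 signal intensity per probe set, linear, corrected for background and brought to the same trimmed mean on every array. Software named in the submitters' notes comprises MAS5 5.0, GCOS 1.1.2 and Affymetrix Expression Console 1.1. Titles in the labels gave each pool its diet, and number the pools of a diet as biological replicates.

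The log2 of each signal was taken without a pseudocount. Of 24123 probe sets, 124 were Affymetrix controls and were not tested, and the other 23999 entered limma 3.58.1 under R 4.3.3 (functions lmFit and eBayes, trend on), unfiltered, with Benjamini-Hochberg adjustment over all of them. The fit has 2 residual degrees of freedom, and the moderated variance adds 5.18 prior degrees of freedom drawn from all probe sets. The SE of a gene therefore does not rest on the spread of its own pools alone. Precision is limited by the number of arrays. An exact permutation test of 2 pools against 2 cannot go below a two-sided p of 0.333. Symbols were those of the platform annotation and may be outdated (1 symbol for 10069 probe sets, several for 198, none for 13732), and the gene table changed 0 of them. No genome coordinates or sequences are given, and some genes of these pathways are not reported here.

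The genes and lists were chosen with earlier results of these data known. Any of them could be named, with the signals of all pools for genes at an unadjusted p under 0.05 or at 2-fold, for GAPDH and for the brightest gene and that with the smallest p in each branch. Signals of further genes were added after they were seen. Of each list of neighbouring genes, up to 3 with the smallest p could be named, and some others were named after they were seen. The fit was tested on simulated data. Alternatives were quantile normalization, median-centred arrays, the 25th percentile as a floor, 64 added to each signal, a filter at the median signal, a fit without the trend, the one-factor analysis of variance that the study's statistics name, the mean over probe sets of a gene, the replicate number as a block, and each pool left out.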

Additional observations from a re-analysis of the deposited data

How the results depend on the processing

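No gene of these pathways passed the adjusted p of limma under any of the 13 alternatives tried. The direction of OGDH, PYGL and IDH3G cannot turn without 1 pool, since their pools did not overlap, and only quantile normalization, centring and the offset altered their log2 ratios otherwise, without turning them. At an unadjusted p under 0.05 there were 1 higher and 2 lower genes, against 2 and 1 with arrays centred on the median, 0 and 1 with a filter at the median signal (PYGL) or without the variance trend (ENO3), and 2 and 2 with the one-factor analysis of variance (OGDH and DLAT higher, PYGL and PDHB lower). The background moved too. In both directions together, 2076 of 23999 probe sets were under this threshold in the main fit and 2096 with centring. There were 1433 of 11999 with the filter, 1686 of 23999 without the trend, 1682 with the analysis of variance and 2293 with the replicate block. With the replicate number as a block there were 1 higher (ACO1) and 1 lower (PYGL), where 0 of the 39 genes passed the adjusted p while 106 of all probe sets did, against 1 without the block. The numbers are no pairing by the labels, and deviations of same-numbered pools correlated at 0.0049 across probe sets. Leaving out 1 pool gave 0 to 4 higher and 0 to 5 lower genes, with 0 and 0 without carnitine pool 2, 2 and 1 without carnitine pool 1, 0 and 2 without control pool 1, and 4 and 5 without control pool 2. It gave 10 to 17 genes with both comparisons upward and 12 to 17 downward. With 1 pool against 2, fewer comparisons have to go the same way, so more genes separate by chance than with all pools. The shares over all probe sets were not counted for these fits, so the counts do not show a rise in separated genes. At 2-fold, leaving out 1 pool gave 0 to 1 genes in either direction (LDHB without carnitine pool 1, ENO3). ENO3 was under 2-fold with the floor, with the offset and without control pool 2 and was removed by the filter, so that 0 genes remained at 2-fold. Fits without 1 pool keep 1 pool of a diet and assume that it varies like the other diet's.

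The median log2 fold change of all 39 genes and that of the TCA cycle were both 0.048 with quantile normalization and 0.025 with centring, where the median over all probe sets was -0.011 and 0.020. Centring shifts all probe sets alike. With the mean over probe sets of a gene the median of the 39 genes was 0.016. For the later steps of glycolysis it was -0.046, -0.047 and -0.12 under these settings and -0.039 with the filter. Without 1 pool the medians ran from -0.012 to 0.067 for all genes, -0.38 to 0.35 for transport, -0.073 to 0.32 for the first steps of glycolysis, -0.20 to -0.067 for the later steps, 0.090 to 0.37 for gluconeogenesis, -0.12 to 0.28 for pyruvate dehydrogenase, -0.044 to 0.048 for the TCA cycle and -0.43 to -0.25 for glycogen. The glycogen median rests on 3 of 5 listed genes and was the value of UGP2 in these fits. Its sign could not turn, since the pools of UGP2 and PYGL did not overlap. Without detection calls the ratio of signal to background is unknown, and dim signals vary most.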

Other observations

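The summed signals of the remaining cell type markers are given as values. Markers of T and NK cells (7 of 9 measured) summed to 1053 and 815 with carnitine and 1608 and 1053 in controls. Endothelial markers (7 of 8 measured) summed to 3745 and 2448 against 2923 and 5319. Cholangiocyte markers (5 of 6 measured, 2 above and 3 below 0) summed to 1769 and 1311 against 1240 and 7364, with control pool 2 the highest. SPP1 alone gave 6231 of the 7364, and the dim CFTR was higher with carnitine, at 27.6 and 29.2 against 1.84 and 16.4. Of the erythroid markers 2 of 6 were measured. ALAS2 gave 358 and 240 against 644 and 917, lower with no overlap, and HBB overlapped at 310 and 299 against 278 and 301.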
